A study of Danio rerio with 14 samples.

Results

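Acetylation of histone H3 at lysine 27 (H3K27ac) and trimethylation of the same histone at lysine 4 (H3K4me3) were compared within wild-type (WT) zebrafish embryos, peak by peak. Members were all peaks of the WT H3K27ac list and of the WT H3K4me3 list on chromosomes 1 to 25 of the danRer11 assembly, except those between 36 and 37 Mb of chromosome 16. This gave 125602 H3K27ac peaks and 53429 H3K4me3 peaks, or 179031 of the 786222 peaks in the 7 lists of the series. No peak was dropped for being weak.

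The 7 ChIP-seq libraries came from whole embryos at 4.3 hours post fertilization (hpf), the dome stage of WT. WT fish were of the AB/TL strain, and the study states no common background for the mutant lines. Besides WT, the series holds maternal-zygotic mutants of the transcription factor Pou5f3 (MZspg, null allele m793) and of Sox19b (MZsox19b, allele m1434), which lack both the maternal and the zygotic product. According to the methods of the study, mutants were collected at the age of WT, embryos of many crosses were pooled, and nuclei of different days were joined for 1 ChIP experiment. The WT H3K27ac library pooled the material of 2 ChIP experiments and the WT H3K4me3 library came from 1, so each mark had 1 library in WT and no test between samples was possible. Rabbit antibodies were used for both marks, from Abcam for H3K27ac and from Millipore for H3K4me3. Intervals given below for shares are 95% Wilson intervals, which cover counting error only.

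H3K4me3 is deposited at promoters by complexes that recognize unmethylated CpG islands, and it marks the start of most genes that are active or ready for activation. H3K27ac is written by the acetyltransferases p300 and CBP, and it lies both on active promoters and on active enhancers, so that H3K27ac without H3K4me3 is commonly read as an enhancer mark. In zebrafish both marks appear on the genome around zygotic genome activation, when the embryo takes over transcription from the maternal supply. Embryos were sampled whole here, so 2 marks at 1 place may sit in the same cells or in different ones, and this cannot be told apart.

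Strength was read from the fold enrichment of a peak over background at its summit, as deposited, and peaks were ranked by it within their own list. The H3K27ac list covered 50.6 Mb with fold enrichments of 1.25 to 47.5, and the H3K4me3 list covered 27.3 Mb with fold enrichments of 1.16 to 156. The lists carry no read counts per peak. Read totals per library are stated in the study's reporting summary, where those of the WT ChIP libraries are similar, and were not used here. Folds of the marks come from different antibodies and were compared by rank and not by size.

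To ask how often the marks lay together, a peak was counted as overlapped when a peak of the other mark shared at least 1 bp with it. H3K4me3 was found at 38679 of 125602 H3K27ac peaks (30.8%, 30.5 to 31.1). H3K27ac was found at 36856 of 53429 H3K4me3 peaks (69.0%, 68.6 to 69.4). Most H3K4me3 places thus carried H3K27ac, while 86923 H3K27ac peaks had no H3K4me3. These shares belonged to the whole lists and moved with their length. With the H3K27ac list reduced to its 53429 highest peaks, 45.3% of H3K27ac and 44.6% of H3K4me3 peaks were overlapped.

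Strong H3K27ac was mostly joined by H3K4me3, and weak H3K27ac mostly was not. Among the 1000 highest H3K27ac peaks 85.1% (82.8 to 87.2) were overlapped, and among ranks 1001 to 2000 it was 82.1%. The share fell through 70.5% at ranks 2001 to 5000, 59.7% at ranks 5001 to 10000, 51.5% at ranks 10001 to 20000 and 37.3% at ranks 20001 to 50000. It was lowest, at 20.6% (20.3 to 20.9), among the 75602 peaks below rank 50000. The intervals of the classes did not overlap, except for the first and the second. The strongest H3K27ac was also where the partner was strongest. Of the overlapped peaks among the 1000 highest, 93.2% lay on 1 of the 10000 highest H3K4me3 peaks, against 9.15% of the overlapped peaks below rank 50000. Over all overlapped H3K27ac peaks it was 28.2%.

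In the other direction the top of the H3K4me3 list was complete. None of the 2000 highest H3K4me3 peaks lacked H3K27ac. A count of 0 allows a share of up to 0.150%, a limit that takes 3 counts and is not a Wilson interval. The first H3K4me3 peak without H3K27ac stood at rank 3513. At ranks 2001 to 5000, 99.4% (99.1 to 99.6) carried H3K27ac, and at ranks 5001 to 10000 it was 89.1% (88.2 to 89.9). The share then went down to 68.0% at ranks 10001 to 20000 and 60.3% at ranks 20001 to 50000. It was higher again, at 73.7% (72.2 to 75.2), among the 3429 weakest peaks.

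That turn at the bottom of the H3K4me3 list was present without chromosome 4 as well, with 57.4% at ranks 20001 to 50000 and 71.7% below. Chromosome 4 held 17.5% and 18.3% of the peaks in these classes. The weakest class had a median −log10 q of 2.16, close to the limit of the list, against 4.40 in the class above it. Whether this bears on the turn was not tested.

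**Figure D1:**
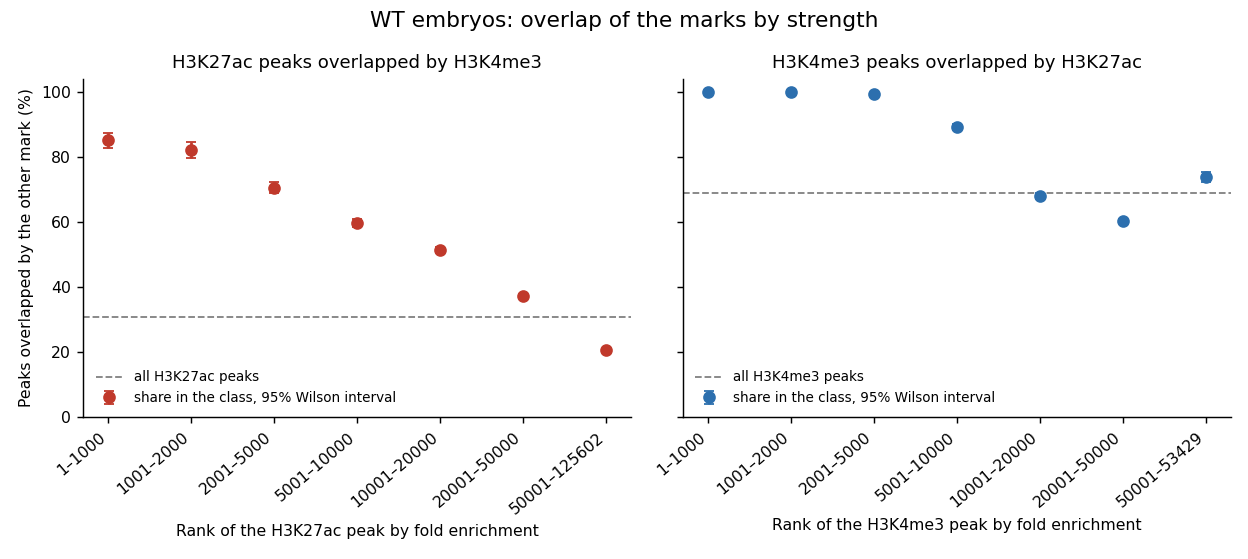
Share of WT peaks overlapped by the other mark (y axis, %) in classes of fold enrichment rank (x axis), for H3K27ac peaks (left) and H3K4me3 peaks (right). Bars are 95% Wilson intervals and the dashed line is the share over all peaks of the list, 30.8% for H3K27ac and 69.0% for H3K4me3. H3K27ac falls from class to class, whereas H3K4me3 stays at 99.4% or above down to rank 5000 and turns up in the weakest class.

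The 4 highest H3K27ac peaks lay on H3K4me3 with nearly coinciding summits. Highest was chr7:73817226-73827687, 10462 bp wide and 47.5-fold enriched. It lay on an H3K4me3 peak of 10047 bp and 48.6-fold, which was also the widest H3K4me3 peak of the list, and the summits were 35 bp apart. Rank 2, chr7:6443551-6448006, had a fold enrichment of 42.3 on an H3K4me3 peak of 46.7-fold with the summit 17 bp away. Rank 3, chr25:36368239-36370363, had 41.5-fold enrichment and its H3K4me3 summit (55.1-fold) 8 bp away. Rank 4, chr7:6425815-6434473, was 8659 bp wide and overlapped 3 H3K4me3 peaks, the strongest of 35.5-fold with its summit 31 bp away. In H3K4me3 these partners stood only at ranks 3152, 3337, 2578 and 4686, so these 4 peaks were not at the top of both lists. They were not typical, since the 851 overlapped peaks among the 1000 highest H3K27ac peaks had a median partner rank of 884.

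Lone H3K27ac peaks nonetheless reached high up the list. The strongest without H3K4me3 was chr15:45941277-45942663, at rank 20 with a fold enrichment of 31.0 and 26960 bp from the nearest H3K4me3 peak. Rank 21, chr3:1903190-1903630, was 30.7-fold enriched but only 441 bp wide, 7849 bp from any H3K4me3 peak and 226751 bp from 1 of the 10000 highest. Rank 24, chr6:29237069-29242238 (30.0-fold), and rank 29, chr19:43772685-43777866 (29.3-fold), were broad, at 5170 and 5182 bp. They differed in their surroundings, since the nearest H3K4me3 peak lay 17114 bp away for rank 24 and 663 bp away for rank 29.

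The strongest lone H3K4me3 peaks stood further down their list. They were chr1:17695360-17696725 (rank 3513, 44.8-fold), chr17:20165915-20167169 (rank 3803, 42.4-fold), chr21:2954433-2955367 (rank 4015, 40.7-fold) and chr1:45341152-45341940 (rank 4044, 40.5-fold). Their widths ran from 789 to 1366 bp. The nearest H3K27ac peak was 8927 bp away for the first, 41850 bp for the second, 1738 bp for the third and 3478 bp for the fourth.

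Gene names could be given only for peaks that overlapped an accessible region of chromosome 1 for which the study listed WT transcripts within 20 kb. The 1973 regions read for this are part of the study's table. These examples were chosen after their values were seen, and a transcript within 20 kb need not be the one controlled from the peak. Both marks were strong near hemgn and anp32b, an acidic nuclear phosphoprotein. There H3K27ac was 28.3-fold enriched over 11077 bp (rank 43), with H3K4me3 of 109-fold (rank 209) and summits 20 bp apart. The gene si:ch73-160h15.3 lay near an H3K27ac peak of 32.1-fold (rank 16) with H3K4me3 of 121-fold. In the next highest H3K27ac peaks with both marks near listed transcripts, summits were 913 to 3103 bp apart. H3K4me3 ran from 2.07-fold to 58.9-fold there.

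Genes with strong H3K4me3 included fbxw7, which encodes the substrate-binding part of a ubiquitin ligase. Its H3K4me3 peak was 105-fold enriched (rank 251), and the stronger of its 2 H3K27ac peaks was 13.8-fold (rank 1524). That was within the quartiles of 11.9 and 19.3 for H3K27ac on the 1000 highest H3K4me3 peaks. Near eif5b and lipt1, a translation initiation factor and a lipoyltransferase, a peak of 52.5-fold in H3K4me3 carried H3K27ac of 4.50-fold (rank 14234). A second H3K4me3 peak close by (17.5-fold) had none, and the nearest H3K27ac peak was 1674 bp away.

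Lone H3K27ac on chromosome 1 was found near atf7ip, known in mammals as a partner of an H3K9 methyltransferase, at 17.2-fold over 7697 bp (rank 722). It was also found near the chromatin protein gene hmgb2a (15.7-fold), near dctd and irf2a, an interferon regulatory factor (14.0-fold), and near spry2, an inhibitor of FGF signalling (11.5-fold). Near the RNA-binding protein gene rbm47, a lone peak of 11.0-fold spanned 4581 bp. The nearest H3K4me3 peak lay 3220 bp away at atf7ip, 994 bp at hmgb2a, 1991 bp at irf2a, 3185 bp at spry2 and 5280 bp at rbm47. The highest lone peak near listed transcripts, at mhc1zba and morc3b (20.3-fold, rank 346), was only 278 bp from H3K4me3. Near si:ch73-109d9.1 (16.4-fold) the distance was 185 bp, and near appa (14.3-fold) it was 1504 bp. These lone peaks were chosen near listed transcripts, so their distances do not describe strong lone peaks at large. The 149 lone peaks among the 1000 highest had a median distance of 6107 bp. Near atf7ip a second H3K27ac peak (14.6-fold, rank 1246) did overlap H3K4me3 (3.51-fold). Lone H3K4me3 was found near pi4k2b, a lipid kinase, at 17.0-fold (rank 8164) with the nearest H3K27ac peak 25093 bp away. The homeobox gene otx2a, a regulator of the anterior embryo, had an H3K4me3 peak of 9.40-fold (rank 11207) nearby with an H3K27ac peak of 3.66-fold (rank 22537).

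To compare the shapes of the marks, widths were set side by side. H3K27ac peaks had a median width of 247 bp (quartiles 174 and 425) and H3K4me3 peaks of 310 bp (195 and 650), a ratio of 0.80. Both grew with strength, to 1604 bp among the 1000 highest H3K27ac and 1750 bp among the 1000 highest H3K4me3 peaks. Where 1 H3K27ac peak met 1 H3K4me3 peak (33209 pairs), H3K27ac was 0.90 times as wide (quartiles 0.63 and 1.24).

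Which mark was wider depended on the strength of H3K4me3. On the 1000 highest H3K4me3 peaks, H3K27ac was 0.78 times as wide (1266 against 1659 bp), and on ranks 5001 to 10000 only 0.56 times (463 against 893 bp). It was 1.08 times as wide at ranks 20001 to 50000 and 1.21 times below. H3K27ac thus sat inside the H3K4me3 peak in 81.8% of pairs at ranks 5001 to 10000, and in 11.3% of the pairs in the weakest class. There the reverse, H3K4me3 inside H3K27ac, made up 44.2%. Fold enrichment was not matched between the marks.

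At equal rank, lone H3K27ac peaks were wider than those with H3K4me3 in all classes but the weakest. Among the 1000 highest, the 149 lone peaks had a median width of 2752 bp against 1535 bp for the 851 overlapped. At ranks 1001 to 2000 the medians were 2185 and 1241 bp, and at ranks 2001 to 5000 they were 1618 and 982 bp. The gap closed further down, with 339 against 308 bp at ranks 20001 to 50000, and turned round below rank 50000, with 185 against 222 bp. Over the 10000 highest H3K27ac peaks lone ones were 1.37 times as wide. The ratio was 2.31 when peaks of 1 mark within 1000 bp were merged. Lone H3K4me3 peaks showed the opposite, with medians of 750 against 935 bp for overlapped peaks at ranks 5001 to 10000 and 200 against 236 bp at ranks 20001 to 50000.

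**Figure D2:**
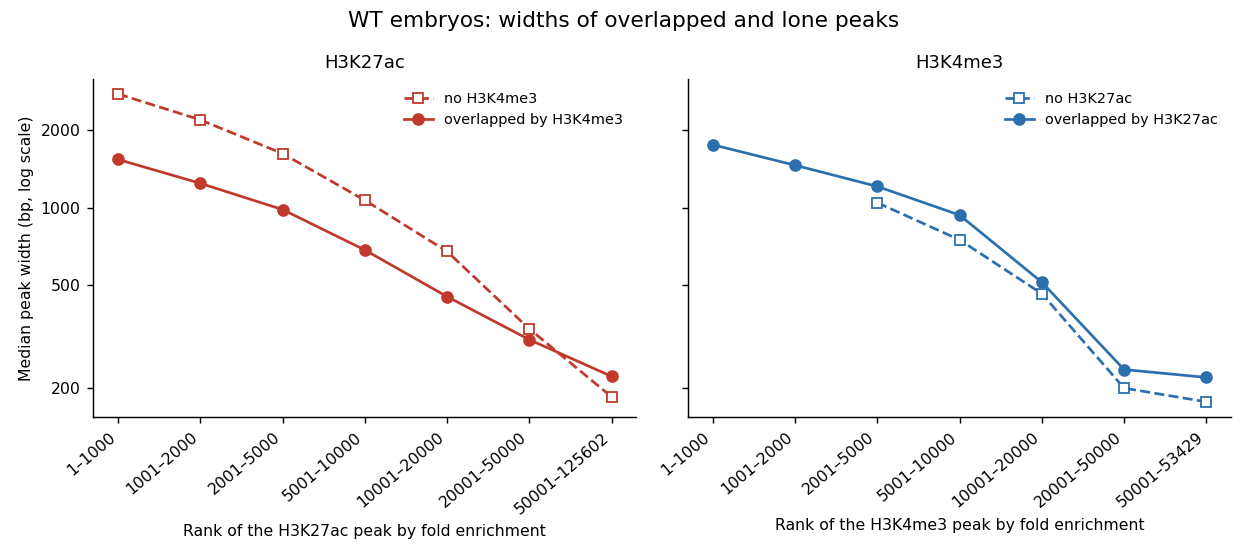
Median peak width (y axis, bp, log scale) of lone peaks (open, dashed line) and overlapped peaks (filled, solid line) by fold enrichment rank (x axis) in WT, for H3K27ac (left) and H3K4me3 (right). Lone H3K27ac peaks lie above overlapped ones down to rank 50000, while lone H3K4me3 peaks lie below overlapped ones throughout. No H3K4me3 peak above rank 3513 was lone.

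The summits of the marks, the positions of highest enrichment, were close together at all strengths. Each H3K4me3 peak was paired with its strongest overlapping H3K27ac peak. The median distance between summits was 40 bp (quartiles 16 and 94, n = 36856), and 57.2% of pairs lay within 50 bp. Only 4.03% were over 500 bp apart. Along the genome coordinates the signed distance had a median of 0 bp and quartiles of -40 and 41 bp. Peaks carry no strand here, so a side relative to the direction of genes could not be read.

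The median distance hardly moved with strength, whereas width did. The share of pairs over 500 bp apart moved more, from 2.70% on the 1000 highest H3K4me3 peaks to 5.95% at ranks 5001 to 10000. The median was 40 bp on the 1000 highest H3K4me3 peaks, between 37 and 42 bp in the classes from rank 2001 to 50000, and 44 bp both at ranks 1001 to 2000 and in the weakest class. Relative to the width of the H3K4me3 peak it was 2.32% at the top and 18.4% at the bottom. By width class the median distance did rise, from 34 bp on H3K4me3 peaks under 250 bp to 92 bp on those of 3000 to 5000 bp. It was 758 bp on the 12 of 5000 bp or more. In narrow peaks, overlap itself limits the distance. Ordered by H3K27ac instead, medians ran from 35 bp at ranks 10001 to 20000 to 51 bp below rank 50000. For scale, the H3K27ac summits of the MZsox19b replicates, the same mark in separate ChIP experiments, were 76 bp apart over all shared peaks. These were 24 bp apart for the 1000 highest and 101 bp apart below rank 50000. The strongest summits of a single mark were therefore closer together than those of the WT marks, and the weakest were further apart, in lists whose peaks were wider (medians 364 and 361 bp). Genotype and the set of peaks differed in this comparison. Within MZsox19b, summits of the 2 marks were 49 and 61 bp apart over all pairs with replicates 1 and 2.

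**Figure D3:**
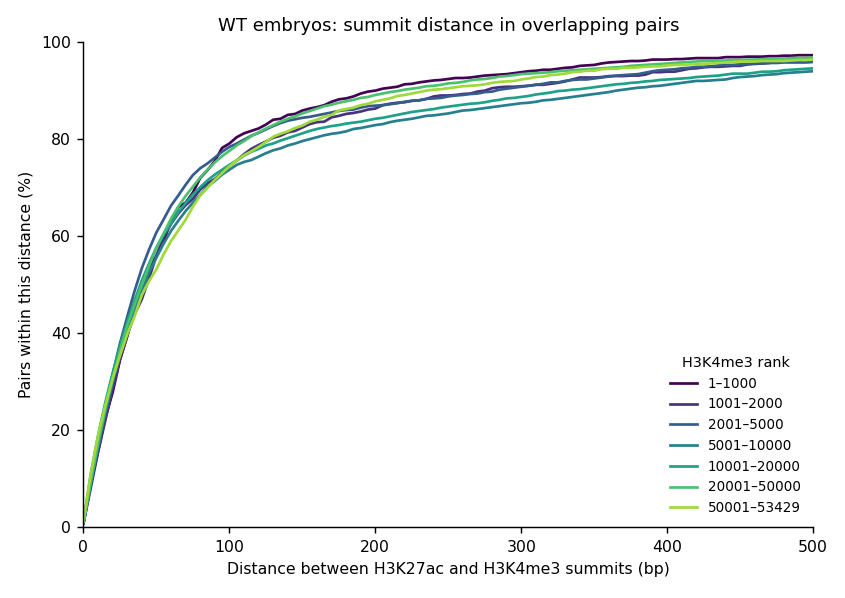
Cumulative share of overlapping pairs (y axis, %) whose H3K27ac and H3K4me3 summits lie within a given distance (x axis, bp) in WT, with 1 line per class of H3K4me3 rank. The lines of all 7 classes reach 50% between 37 and 44 bp and part further out. Within 200 bp lay 82.9% of pairs at ranks 5001 to 10000 and 90.0% on the 1000 highest.

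Few H3K4me3 peaks held several H3K27ac peaks. Of the 53429, 16573 had none, 34522 had 1 (64.6%), 2117 had 2, 194 had 3 and 23 had more, with a mean of 0.74. The mean was 1.19 on the 1000 highest H3K4me3 peaks and 0.62 at ranks 20001 to 50000. It also rose with width. H3K4me3 peaks under 250 bp held 0.56 H3K27ac peaks on average, those of 1000 to 2000 bp held 1.17, and the 134 of 3000 to 5000 bp held 1.80. A mean of 3.25 was reached by the 12 peaks of 5000 bp or more, whose median fold enrichment was only 4.72. In the other direction, 38030 H3K27ac peaks met 1 H3K4me3 peak, 586 met 2 and 63 met 3 to 7. With the H3K27ac list reduced to the number of H3K4me3 peaks, the mean was 0.46 H3K27ac peaks per H3K4me3 peak.

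Where an H3K4me3 peak held 2 H3K27ac peaks, they were unequal. Their summits were 628 bp apart (quartiles 475 and 907), and in 60.8% of the 2117 cases (58.7 to 62.9) they lay on either side of the H3K4me3 summit. No expected share was computed for this arrangement. The stronger (median 4.22-fold) was 74 bp from the H3K4me3 summit, and the weaker (2.53-fold) 532 bp. The stronger H3K27ac peak thus lay at the H3K4me3 summit and the weaker one on its shoulder, by these medians.

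The H3K4me3 peaks with most H3K27ac peaks were broad and of low fold enrichment. They were chr10:16806185-16810838 with 6 H3K27ac peaks (4654 bp, 4.58-fold), chr4:39331084-39338107 with 6 (7024 bp, 3.50-fold) and chr4:40246395-40252420 with 5 (6026 bp, 7.45-fold). The first had a −log10 q of 665 all the same, above the median of 566 at ranks 2001 to 5000, against 13.1 and 98.7 for the others. Their H3K27ac did not exceed 3.82-fold, and its strongest summit was 1290 to 1958 bp from that of H3K4me3. The widest H3K4me3 peaks included both kinds. Besides the domain on chromosome 7 named above, chr7:5907728-5915385 (7658 bp, 31.7-fold) matched 1 H3K27ac peak of 9345 bp and 31.0-fold, whereas chr20:55187230-55196837 (9608 bp, 5.00-fold) held 4 H3K27ac peaks, the strongest of 3.95-fold.

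Strong H3K4me3 went with strong H3K27ac. The Spearman correlation of fold enrichment over the 36856 pairs was 0.60, given as a description without a p-value, since the pairs share 2 libraries, their depth and the accessibility and copy number of the DNA. Over the 9436 pairs on the 10000 highest H3K4me3 peaks it was 0.68. Within single classes, which span a smaller range of fold enrichment, it was 0.41 for the 1000 highest H3K4me3 peaks, 0.15 at ranks 1001 to 2000, 0.33 at ranks 2001 to 5000, 0.22 at ranks 5001 to 10000 and 0.14 to 0.16 in the classes below. Median H3K27ac was 15.2-fold on the 1000 highest H3K4me3 peaks, 11.1-fold at ranks 1001 to 2000, 7.22-fold at ranks 2001 to 5000 and 4.31-fold at ranks 5001 to 10000. Below rank 20000 it was 2.73-fold or less.

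The pairing was uneven between the directions, in a way that depended on how many peaks were taken. On the 1000 highest H3K4me3 peaks, 995 of the H3K27ac partners (99.5%) were among the 10000 highest of their list, and 1 ranked below 20000. Over all overlapped H3K4me3 peaks, 18.8% had a partner among the 10000 highest. From the side of H3K27ac, 26 of the 851 overlapped peaks among the 1000 highest had a partner ranked below 20000 in H3K4me3. Over the 10000 highest the order was reversed. There 522 of the 6769 overlapped H3K27ac peaks had such a partner, against 2104 of the 9436 overlapped H3K4me3 peaks. Over all overlapped peaks it was 20459 of 38679 for H3K27ac and 24869 of 36856 for H3K4me3. The H3K27ac list is the longer one, so equal ranks are not equal depths in the lists. The plot of fold enrichments holds 1 pair per H3K4me3 peak, so it counts such pairs differently. In it, 639 H3K4me3 peaks at ranks 20001 to 50000 and 70 below had a partner among the 10000 highest H3K27ac peaks. They form a column of strong H3K27ac above weak H3K4me3.

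**Figure D4:**
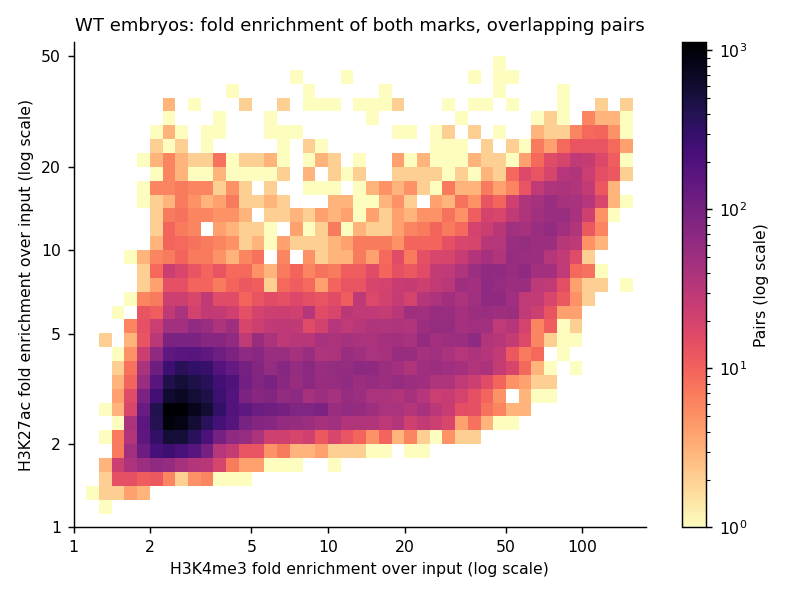
H3K27ac fold enrichment (y axis, log scale) against H3K4me3 fold enrichment (x axis, log scale) for the 36856 WT H3K4me3 peaks with an overlapping H3K27ac peak, colour giving the number of pairs per cell on a log scale. H3K27ac is low and flat over weak H3K4me3 and climbs over strong H3K4me3, with a Spearman correlation of 0.60.

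Lone H3K27ac peaks were described by their distance to H3K4me3. No expected distance was computed for a list of this length. The median distance from the 86923 lone peaks to the nearest H3K4me3 peak was 7215 bp (quartiles 2177 and 18810). Within 1 kb lay 14.1% of them, within 5 kb 41.3%, within 20 kb 76.5% and within 100 kb 98.7%. Of all H3K27ac peaks 0.902% (0.851 to 0.956) were further than 100 kb from H3K4me3.

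This distance was alike for strong and weak lone peaks as long as any H3K4me3 peak counted. Medians were 6107 bp for the 149 lone peaks among the 1000 highest, 5771 bp at ranks 1001 to 2000 and 6924 to 7516 bp in the classes below. Measured to the 10000 highest H3K4me3 peaks alone, the strong lone peaks were closer. Their medians were 19655 bp for the 1000 highest and 18125 bp at ranks 1001 to 2000, against 34099 to 36327 bp in the classes below rank 10000. The value depended on which H3K4me3 peaks were listed, and was 11985 bp when the top 50% of each list was used.

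**Figure D5:**
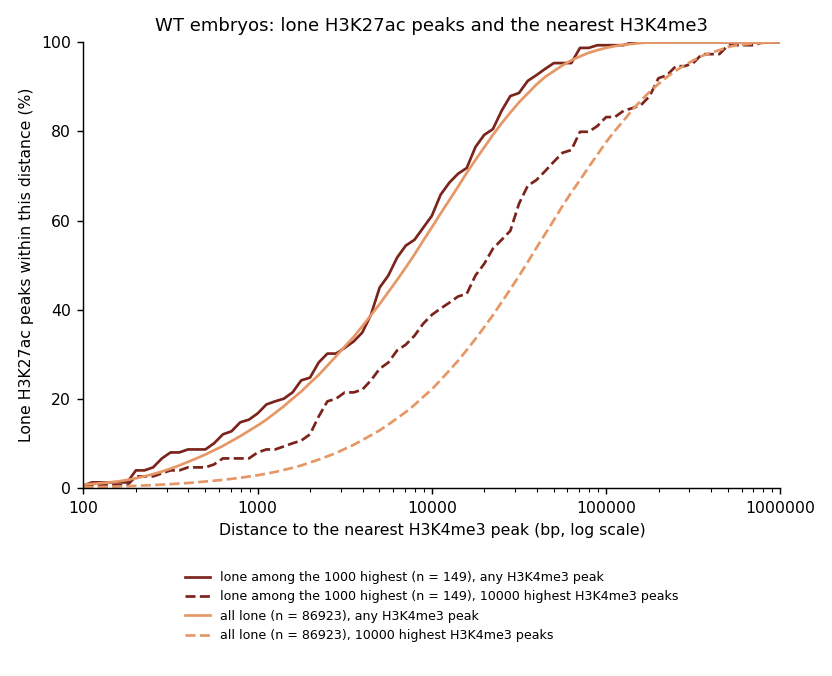
Cumulative share of lone WT H3K27ac peaks (y axis, %) by distance to the nearest H3K4me3 peak (x axis, bp, log scale). Solid lines use any H3K4me3 peak and dashed lines the 10000 highest, for the 149 lone peaks among the 1000 highest H3K27ac peaks (dark) and for all 86923 lone peaks (light). The solid lines nearly coincide, with medians of 6107 and 7215 bp, and the dashed lines are apart, with medians of 19655 and 34594 bp.

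Lone H3K4me3 peaks had H3K27ac closer by, with a median distance of 2484 bp (quartiles 740 and 8045, n = 16573). Here strength mattered from rank 5001 on. Medians were 6845 bp at ranks 5001 to 10000, 4194 bp at ranks 10001 to 20000, 2186 bp at ranks 20001 to 50000 and 939 bp below. The only 17 lone peaks at ranks 2001 to 5000 were outside this order, with a median of 3553 bp. Within 1 kb of H3K27ac lay 51.6% of the weakest lone H3K4me3 peaks, against 10.2% at ranks 5001 to 10000. The weak lone H3K4me3 peaks were thus often neighbours of an H3K27ac peak. The H3K27ac list held more peaks than the H3K4me3 list, so the distances of the marks are not on 1 scale.

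Chromosomes were alike except for chromosome 4. Chromosome 4 carried 15514 H3K27ac peaks, of which 40.5% were overlapped, and 7960 H3K4me3 peaks, of which 76.9% were. On the other chromosomes the shares ran from 26.0 to 34.5% for H3K27ac and from 62.8 to 72.1% for H3K4me3. The excess sat beyond 30 Mb of chromosome 4, with 44.3% of 12491 H3K27ac peaks and 77.9% of 6959 H3K4me3 peaks, against 24.8% and 70.0% before it. Median summit distance was 38 bp on chromosome 4 and 34 to 45 bp elsewhere. Among the 10000 highest peaks chromosome 4 did not stand apart, with 73.0% of its H3K27ac and 96.3% of its H3K4me3 peaks overlapped, inside the ranges of the others (58.3 to 78.8% and 90.8 to 96.7%).

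To see whether the relation of the marks was particular to WT, it was measured in the same way within each mutant. In MZspg 16.2% of H3K27ac and 86.0% of H3K4me3 peaks were overlapped. In MZsox19b it was 22.2% of H3K27ac and 70.5% of H3K4me3 peaks with replicate 1, and 19.2% and 71.5% with replicate 2, against 30.8% and 69.0% in WT. The H3K4me3 lists differed in length, with 22484 peaks in MZspg, 42524 in MZsox19b and 53429 in WT, and the H3K27ac share followed this order. Among the 10000 highest H3K27ac peaks, MZsox19b replicates 1 and 2 had H3K4me3 at 78.2% and 73.3%, and MZspg at 71.2%, against 67.7% (66.8 to 68.6) in WT. Among the 10000 highest H3K4me3 peaks it was 98.1% in MZspg and 98.7% and 98.0% in MZsox19b, against 94.4% (93.9 to 94.8) in WT. WT was the lowest in both. For the 10000 highest H3K27ac peaks the MZspg value was nearer to WT than the values of the MZsox19b replicates were to each other. For the 1000 highest it was not. There the share was 89.9% (87.9 to 91.6) in MZspg and 93.9% and 91.3% in MZsox19b, against 85.1% (82.8 to 87.2) in WT.

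Other features were shared by the genotypes at the top of the H3K4me3 lists, and less so over all peaks. All of the 1000 highest H3K4me3 peaks carried H3K27ac in MZspg, in MZsox19b with either replicate, and in WT. The median summit distance on the 10000 highest H3K4me3 peaks was 45 bp in MZspg and 33 and 42 bp in MZsox19b, against 40 bp in WT. Over all pairs WT was the lowest, with 40 bp against 48 bp in MZspg and 49 and 61 bp in MZsox19b. The Spearman correlation on the 10000 highest H3K4me3 peaks was 0.67 in MZspg and 0.69 and 0.67 in MZsox19b, against 0.68 in WT. Over all pairs it was 0.72 in MZspg and 0.52 and 0.42 in MZsox19b, against 0.60 in WT. Lone H3K27ac peaks lay 14464 bp from H3K4me3 in MZspg and 8470 and 8444 bp in MZsox19b, against 7215 bp in WT, in the order of the lengths of the H3K4me3 lists. MZspg and WT had 1 library per mark, and MZsox19b had 1 H3K4me3 library, against which both H3K27ac replicates were set. A genotype and a library therefore cannot be told apart.

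WT peaks were also looked up in the mutant lists of the same mark, split by whether the second mark was present in WT. Of all WT H3K27ac peaks, 46.3% were overlapped by an MZspg H3K27ac peak, and 55.1% and 61.6% by a peak of MZsox19b replicates 1 and 2. Below WT rank 50000, H3K27ac peaks with H3K4me3 were found in MZspg in 46.9% (46.1 to 47.7) of cases and lone ones in 29.5% (29.1 to 29.9). At ranks 2001 to 5000 these shares were 97.0% and 80.1% in MZspg. The MZsox19b replicates gave 99.2% against 92.0% and 99.4% against 94.6% in that class. H3K27ac with H3K4me3 was the more often found in each class and list, except for the 1000 highest in MZsox19b replicate 2, where 1 overlapped and no lone peak was missing.

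For H3K4me3 the second mark did not sort peaks in 1 direction within classes of rank. Of all WT H3K4me3 peaks, 33.4% were overlapped by an MZspg and 53.1% by an MZsox19b H3K4me3 peak. Over all ranks it was 39.5% with and 19.8% without H3K27ac in MZspg, and 56.0% and 46.6% in MZsox19b. The order was the same at ranks 5001 to 10000, with 90.1% and 89.0% in MZspg and 98.5% and 96.9% in MZsox19b. At ranks 10001 to 20000, H3K4me3 peaks with H3K27ac in WT were found in MZsox19b in 82.6% (81.7 to 83.5) and those without in 91.4% (90.4 to 92.4) of cases. At ranks 20001 to 50000 it was 27.9% with and 34.3% without. MZspg gave 49.3% with and 51.4% without at ranks 10001 to 20000, and the intervals at ranks 20001 to 50000 were 10.1 to 11.0% with and 8.50 to 9.53% without. In the weakest class peaks with H3K27ac were the more often found in both mutants, with 15.5% against 6.22% in MZspg and 24.8% against 17.9% in MZsox19b, which turned the order of the class above in MZsox19b but not in MZspg. Width differed between these groups too, as given above, and its part was not tested.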

How the data were processed

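Peak lists of 7 ChIP libraries were used as deposited, 1 per library. According to the study's methods and reporting summary, the authors mapped reads to danRer11 with Bowtie2 (version 2.3.2.2 per the submitters' processing notes) and called peaks with MACS2 against pooled inputs. The reporting summary also states how many peaks above a fold limit each ChIP sample had. The deposited WT H3K4me3 list, with 63971 peaks in all, falls short of that number. The deposited columns give a score (10 times the −log10 q), the fold enrichment (a ratio to background), the −log10 p-value and −log10 q-value, and the summit offset from the start. The methods say that alternate loci were excluded, but the lists contain them. They were left out here. From these columns, overlaps (1 bp or more), ranks by fold enrichment, widths, summit distances, gaps and Spearman correlations were computed with Python 3.11.15, NumPy 2.4.6, pandas 2.3.3 and SciPy 1.17.1, after checks on simulated lists. The lists hold no read counts, and the read totals in the reporting summary were not used. Coordinates are 1-based.

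No test was run. Members, lists and comparisons were chosen with earlier results of these data known. Named peaks were the 4 highest H3K27ac peaks with and the 4 without H3K4me3, the 4 highest H3K4me3 peaks without H3K27ac, the 3 widest H3K4me3 peaks and the 3 with most H3K27ac peaks. The genes on chromosome 1 were added after seeing values. No genome sequence or annotation of danRer11 was used, so gene lists could not be counted and no sequence is shown.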

Additional observations from a re-analysis of the deposited data

Results flagged for a closer look

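Signal of both marks was also present in WT data that the comparisons above leave out. On sequences other than chromosomes 1 to 25, 40.7% (40.0 to 41.5) of 16087 H3K27ac peaks were overlapped by H3K4me3, and 60.8% (59.8 to 61.7) of 10337 H3K4me3 peaks were overlapped by H3K27ac. The alternate loci among them gave 40.0% of 12262 H3K27ac and 57.3% of 8148 H3K4me3 peaks. On chromosome 16 from 36 to 37 Mb, 76.5% (70.7 to 81.5) of 234 H3K27ac peaks and 86.8% (81.5 to 90.8) of 205 H3K4me3 peaks were overlapped. Median summit distances were 41, 43 and 42.5 bp in these sets.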

How the results depend on the processing

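Of 47 alternatives computed, 16 stayed within an interval around the value given above and 31 moved. For shares this was the Wilson interval. Other measures had intervals of other kinds, which also cover counting error over peaks only. These were 40 to 41 bp for the summit distance and 0.73 to 0.74 for H3K27ac peaks per H3K4me3 peak. The correlation had 0.59 to 0.61, and the distance of lone H3K27ac 7124 to 7310 bp. The width ratio had 0.78 to 0.81, and lone over overlapped H3K27ac width 1.31 to 1.44. The overlapped share of H3K27ac stayed below that of H3K4me3 except with the reduced H3K27ac list. The shares of H3K27ac and H3K4me3 peaks overlapped were 27.1% and 56.5% with an overlap of at least 50% of the peak, 29.3% and 65.2% for the top 50% of each list, 36.4% and 71.0% with peaks of 1 mark within 1000 bp merged, 45.3% and 44.6% with the H3K27ac list reduced to the number of H3K4me3 peaks, 31.9% and 67.7% on all sequences, and 29.4% and 67.6% without chromosome 4. For the 1000 highest peaks, the 50% overlap gave 77.2% of H3K27ac and 94.0% of H3K4me3, and ranking by −log10 q gave 91.1% of H3K27ac. The summit distance was 37 bp for the top 50%. H3K27ac peaks per H3K4me3 peak were 0.69 for the top 50%, 0.72 merged, 0.46 with the reduced list and 0.72 without chromosome 4. The rank correlation was 0.66 for the top 50%, 0.59 by −log10 q, 0.57 per H3K27ac peak and 0.64 without chromosome 4. The distance of lone H3K27ac was 11985 bp for the top 50%, 9146 bp merged and 8124 bp without chromosome 4. The width ratio was 0.67 merged and 0.77 without chromosome 4. Lone over overlapped H3K27ac width was 1.59 by −log10 q and 2.31 merged. Leaving out chromosome 4 and all alternatives of this last ratio were chosen after seeing the data. No paired analysis was possible because WT has 1 library per mark. With 1 library per mark, the spread between embryos or ChIP experiments is not known for WT. Peak lists hold no read counts, and reads were not thinned to a common depth. A missing peak means none above the threshold of the list.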
